A study of Mus musculus with 24 samples.

Results

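Per1 (ENSMUSG00000020893), Per2 (ENSMUSG00000055866) and Per3 (ENSMUSG00000028957) are the 3 Period genes of the mouse, found among the 52350 genes of each count file by Ensembl identifier and symbol. Each had 1 row, and all 3 passed the filter on low counts. Their transcripts were measured by poly-A-selected RNA sequencing of hearts from 24 male wild-type (WT) C57Bl/6 mice aged 12 weeks, kept with lights on for 12 h of each day. The 4 groups held 6 mice each: exercised at ZT12 (ZT12-EX), sedentary at ZT12 (ZT12-SED), exercised at ZT0 (ZT0-EX) and sedentary at ZT0 (ZT0-SED). Zeitgeber time (ZT) is counted in hours from lights on, so ZT12 opens the active phase of a mouse and ZT0 its rest phase. Exercised mice, used to the treadmill beforehand, ran once for 60 min on a level belt (0% grade) at a speed of 10 m/min. How long after the run the heart was taken is not stated in the labels, nor is what sedentary mice did meanwhile. In every group replicates 1 to 3 were sequenced on flow cell 1 and replicates 4 to 6 on flow cell 2, and each replicate is labelled as a separate biological one.

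PER proteins are the repressing arm of the circadian clock. CLOCK and its partner BMAL1 bind E-box sequences and switch on the Period and cryptochrome genes, and PER and CRY proteins return to the nucleus to shut off CLOCK and BMAL1 until casein kinase 1 has marked PER for destruction. Per1 and Per2 can also be switched on within a short time by cAMP signalling through CREB and by glucocorticoids, while Per3 is known mainly as a rhythmic gene that the core loop can do without. In heart muscle the clock times genes of metabolism and of ion channels.

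The RefSeq promoter windows (GRCm38.p6, 250 bases before to 50 after each start) were searched for letters known to carry clock and acute signals. The windows hold only some of these letters, as counted below. Of the 3 genes, 2 matched the table by symbol, Per1 with 2 starts and Per3 with 1. The windows lie at chr11:69098699-69098998 (plus strand, Per1 start 1), chr11:69099902-69100201 (plus strand, Per1 start 2) and chr4:151044616-151044915 (minus strand, Per3). They are printed along the gene's own strand, and capitals mark the E-box, the core TGACG of the cAMP response element and the D-box.
Per1 start 1: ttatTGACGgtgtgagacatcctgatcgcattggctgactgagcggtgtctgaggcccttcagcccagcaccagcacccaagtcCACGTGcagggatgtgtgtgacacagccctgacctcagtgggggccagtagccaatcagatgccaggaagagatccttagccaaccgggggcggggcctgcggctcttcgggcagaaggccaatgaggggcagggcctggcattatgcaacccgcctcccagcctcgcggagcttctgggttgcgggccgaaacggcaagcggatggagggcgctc
Per1 start 2: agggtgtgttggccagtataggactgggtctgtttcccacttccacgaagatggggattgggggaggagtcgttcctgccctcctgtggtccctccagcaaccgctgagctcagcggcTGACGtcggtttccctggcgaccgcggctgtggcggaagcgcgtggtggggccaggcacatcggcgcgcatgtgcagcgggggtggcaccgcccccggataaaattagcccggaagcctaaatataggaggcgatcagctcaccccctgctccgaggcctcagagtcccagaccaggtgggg
Per3 start 1: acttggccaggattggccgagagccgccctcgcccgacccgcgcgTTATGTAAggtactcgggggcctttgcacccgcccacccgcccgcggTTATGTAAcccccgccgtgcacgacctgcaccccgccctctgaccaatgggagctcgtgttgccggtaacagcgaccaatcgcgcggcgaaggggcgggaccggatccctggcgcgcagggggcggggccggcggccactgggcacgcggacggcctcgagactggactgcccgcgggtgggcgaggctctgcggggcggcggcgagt

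On either strand, Per1 start 1 held 1 E-box (CACGTG) at -166, a motif present in 7.15% of all 32851 windows in the table, and 1 TGACG at -246. Per1 start 2 held 1 TGACG at -132, and 20.8% of all windows hold these 5 letters. TGACG is the first part of the full cAMP response element TGACGTCA, which none of the 3 windows held and which 1.79% of all windows hold. Per3 had 2 matches to the D-box TTATGTAA, at -205 and -158. D-boxes are bound by DBP, TEF and HLF, and by their repressor NFIL3. At least 1 such match occurs in 0.938% of all windows, and 2 or more in 0.0213%. The other D-box spelling TTACGTAA, the E-box variant CACGTT, the palindromic glucocorticoid response element, the heat shock element and the TATA box TATAAA had no match in these windows, which says only that the letters do not stand there. The CCAAT box (CCAAT, in 37.4% of all windows) matched 3 times at Per1 start 1, once at start 2 and 3 times at Per3. The GC box (GGGCGG, in 35.7% of all windows) matched 1, 1 and 7 times in the same order. These are matches of letters, not measured binding sites.

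Library totals ranged from 9697334 to 23067191 counts. Levels are given as CPM, that is, the count of a gene divided by the TMM-scaled size of its library. A count of 3 was worth 0.575 CPM in the shallowest library, ZT12-SED 1, and 0.13 to 0.324 CPM in the others. All 8 cardiomyocyte markers were detected in every library. Of the 4 lung markers, Sftpb and Scgb1a1 were at 0 in all 24. Sftpc was at 0 in 18 and Sftpa1 in 22, and they reached at most 0.0605 and 0.065 CPM. The summed level of 12 fast skeletal muscle markers, all of them detected, reached 723 to 3147 CPM in 6 libraries of flow cell 2 (ZT12-EX 6, ZT12-SED 6, ZT0-EX 4 to 6 and ZT0-SED 6), against 3.26 to 45.2 CPM in the other 18. Gene levels relative to the average library followed transcript GC content in a way that differed by library. The Spearman correlation across genes was -0.70 to -0.57 in ZT12-EX, -0.81 to -0.75 in ZT12-SED, -0.22 to -0.19 in ZT0-EX and -0.50 to 0.24 in ZT0-SED on flow cell 1, and 0.43 to 0.68 in all 12 libraries of flow cell 2. Per1 has the most GC-rich transcript of the 3 genes (58.8%), followed by Per2 (56.0%) and Per3 (52.3%). Correlation with the other libraries was lowest for ZT12-SED 1, ZT12-EX 4 and ZT12-SED 2. Hearts were measured in bulk, so fewer cells of a type and less RNA per cell cannot be told apart.

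Over both flow cells together, the 3 genes ordered the groups in different ways. Per1, by its mean CPM, ran ZT12-EX (45.4 ± 25.9), ZT0-EX (39.6 ± 10.5), ZT12-SED (30.9 ± 28.0), ZT0-SED (5.09 ± 2.47). Per2 ran ZT12-EX (48.9 ± 16.9), ZT12-SED (34.6 ± 6.69), ZT0-EX (10.6 ± 2.09), ZT0-SED (3.21 ± 0.775), and Per3 ran ZT12-SED (47.0 ± 4.33), ZT12-EX (42.8 ± 12.0), ZT0-EX (7.38 ± 0.945), ZT0-SED (5.72 ± 1.70; all SD, n = 6). Among neighbours in these orders, the test did not separate ZT12-EX from ZT0-EX or ZT12-SED from ZT0-EX for Per1, ZT12-EX from ZT12-SED for Per2, or ZT12-EX from ZT12-SED and ZT0-EX from ZT0-SED for Per3. The Per1 order held on neither flow cell alone. On flow cell 1 Per1 ran ZT0-EX (30.5), ZT12-EX (23.6), ZT12-SED (6.48), ZT0-SED (3.26). On flow cell 2 it had the order of Per2, with ZT12-EX (67.3), ZT12-SED (55.3), ZT0-EX (48.7), ZT0-SED (6.93). Per2 kept its order on each, while Per3 on flow cell 1 had ZT12-EX (46.3) above ZT12-SED (45.3).

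Per unit of transcript length (CPM per kb of the longest coding transcript), the ZT12-EX means were 9.73 for Per1, 8.39 for Per2 and 7.13 for Per3. Their order differed by flow cell, since Per1 was the lowest of the 3 on flow cell 1 (5.05, against 8.56 for Per2 and 7.72 for Per3) and the highest on flow cell 2 (14.4, against 8.22 and 6.53). Divided by the length of all annotated exons, the ZT12-EX means were 8.07 for Per1, 8.36 for Per2 and 4.45 for Per3, so the place of Per3 also depends on the length used. Per kb of the coding transcript, ZT12-SED hearts had 6.61 for Per1 (1.39 on flow cell 1 and 11.8 on flow cell 2), 5.92 for Per2 and 7.83 for Per3. In ZT0-EX hearts Per1 was at 8.48 CPM per kb against 1.82 for Per2 and 1.23 for Per3, and Per1 was the most abundant of the 3 on each flow cell and with either length. In ZT0-SED all were low, with 1.09 for Per1, 0.550 for Per2 and 0.954 for Per3.

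Over both flow cells together, so with the gap between them included, the spread of a group also differed by gene. For Per1 the coefficient of variation was 57.0% in ZT12-EX, 90.5% in ZT12-SED, 26.6% in ZT0-EX and 48.4% in ZT0-SED. For Per3 it was 28.0% in ZT12-EX, 9.22% in ZT12-SED, 12.8% in ZT0-EX and 29.7% in ZT0-SED. Within flow cell 1 alone, ZT12-SED was likewise the most uneven group for Per1 (67.0%) and the most even for Per3 (5.71%). Within flow cell 2 alone, the most uneven group for Per1 was ZT0-SED (28.5%, above ZT12-SED), and the most even for Per3 was ZT0-EX (5.66%, against 11.6% in ZT12-SED). Over both flow cells Per2 varied by 34.6%, 19.4%, 19.7% and 24.2% in the same order of groups.

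**Figure D1:**
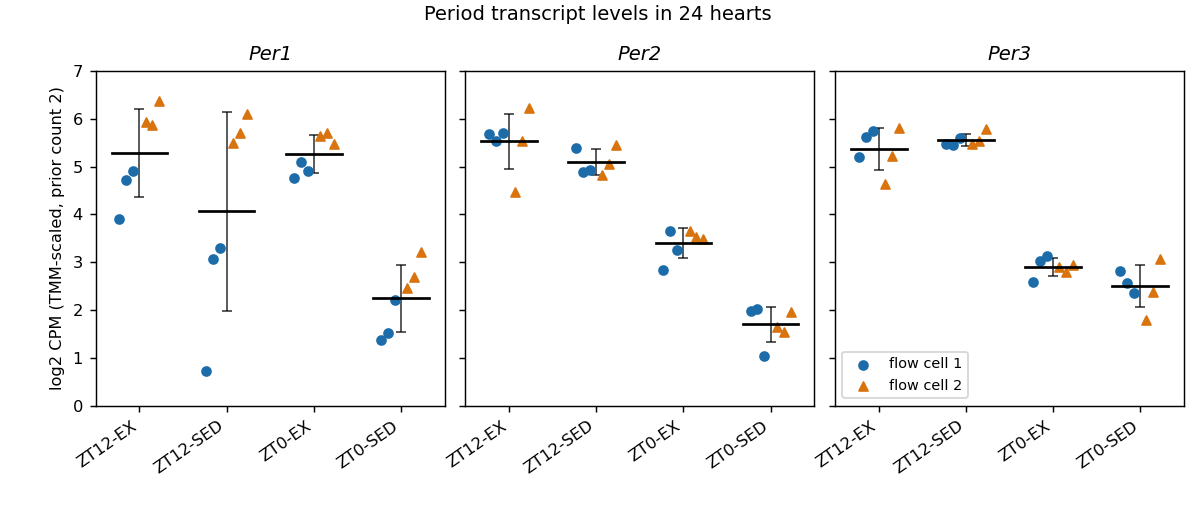
Log2 CPM of Per1, Per2 and Per3 in each of the 24 hearts, by group, with circles for flow cell 1 and triangles for flow cell 2 (horizontal bar: mean; whiskers: SD, n = 6). Per2 and Per3 separate ZT12 from ZT0 libraries, while Per1 is low in ZT0-SED libraries and in those ZT12-SED hearts that ran on flow cell 1.

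Exercise at ZT0 raised Per1 and Per2. Per1 had a lowest, median and highest level of 27.2, 39.4 and 52.2 CPM in ZT0-EX hearts, against 2.48, 4.94 and 9.14 CPM in ZT0-SED hearts. Per2 had 6.97, 11.2 and 12.5 CPM in ZT0-EX hearts, against 1.94, 3.40 and 3.91 CPM in ZT0-SED hearts. For both genes the lowest exercised heart stood above the highest sedentary one, which 0.987% of the 15294 genes tested did in that direction. The log2 fold change was 3.08 ± 0.39 for Per1 (SE, n = 6 per group; edgeR quasi-likelihood test, Benjamini-Hochberg adjusted p = 6.19e-05), an 8.45-fold difference. For Per2 it was 1.71 ± 0.23 (edgeR adjusted p = 0.000126), a 3.28-fold difference. The test called 2 of the 3 Period genes at ZT0, where it called 1.08% of all genes tested (165 genes), and the median log2 fold change of all genes was -0.0080.

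Per3 did not pass at ZT0. It had 5.92, 7.45 and 8.58 CPM (lowest, median, highest) in ZT0-EX hearts and 3.33, 5.42 and 8.26 CPM in ZT0-SED hearts, and the groups overlapped. Its log2 fold change was 0.36 ± 0.20, with a 95% interval of -0.04 to 0.77 (edgeR adjusted p = 0.518). The upper end of that interval lies below the lower ends for Per1 (2.28) and Per2 (1.23).

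The rise at ZT0 had a similar size on both flow cells. As a difference of mean log2 CPM over 3 mice per group, flow cell 1 gave 3.22 for Per1 and 1.57 for Per2, and flow cell 2 gave 2.83 for Per1 and 1.83 for Per2. All 3 ZT0-EX libraries of flow cell 2 carried the fast skeletal muscle transcripts. Fitted without the 6 libraries that held them, Per1 gave 3.55 (edgeR adjusted p = 0.000494), and the value of Per2 was 1.52 (edgeR adjusted p = 0.0213).

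At ZT12 none of the 3 genes passed the test for exercise, in a comparison where it called 0.294% of genes (45). Per1 had 14.9, 43.9 and 82.9 CPM (lowest, median, highest) in ZT12-EX hearts and 1.53, 27.3 and 68.7 CPM in ZT12-SED hearts. Its groups overlapped, and its log2 fold change was 0.84 ± 0.36 with a 95% interval of 0.10 to 1.58 (edgeR adjusted p = 0.273). Flow cell 1 had the larger difference of mean log2 CPM, 2.15, against 0.29 for flow cell 2.

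The low Per1 values at ZT12 were all on flow cell 1. There the 3 ZT12-EX hearts had 14.9, 26.0 and 29.9 CPM and the 3 ZT12-SED hearts 1.53, 8.25 and 9.66 CPM. On flow cell 2 Per1 stood at 57.9, 61.0 and 82.9 CPM in ZT12-EX hearts and at 44.9, 52.3 and 68.7 CPM in ZT12-SED hearts. The lowest value, in ZT12-SED 1, rested on 8 reads. Those flow cell 1 libraries are also the ones with the most negative GC trends. Mitochondrial transcripts took 32.4% to 36.6% of counts in the ZT12-EX hearts of flow cell 1 and 53.4%, 55.1% and 40.7% in ZT12-SED 1, 2 and 3, against 14.7% to 20.7% in the ZT12-SED hearts of flow cell 2. The part of the mitochondrial share in the Per1 values was not tested. With the GC trend removed from each library, the flow cell 1 difference was 1.40 and the flow cell 2 difference 0.18. Without ZT12-SED 1 the fitted value was 0.59 (adjusted p = 0.567), and without the 3 libraries least correlated with the rest it was 0.39 (adjusted p = 0.997).

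Per2 at ZT12 had 22.2, 49.0 and 75.1 CPM in ZT12-EX hearts, against 28.2, 31.9 and 43.8 CPM in ZT12-SED hearts. Of the 6 exercised hearts, 5 stood above every sedentary heart, and ZT12-EX 4 stood below all of them. The log2 fold change was 0.51 ± 0.22, with a 95% interval of 0.05 to 0.96 (edgeR adjusted p = 0.275). With GC offsets in the fit it was 0.12 (adjusted p = 0.897). Removing the GC trend also moved the flow cells apart for this gene. Mean log2 CPM of Per2 in ZT12-SED was then 6.16 on flow cell 1 and 4.74 on flow cell 2, against 5.07 and 5.11 before. In ZT12-EX it was 6.12 and 4.95, against 5.64 and 5.42 before. Per3 had 24.7, 42.9 and 56.0 CPM in ZT12-EX hearts and 43.5, 45.5 and 55.0 CPM in ZT12-SED hearts. Its log2 fold change was -0.14 ± 0.19, with a 95% interval of -0.53 to 0.25 (edgeR adjusted p = 0.699), and 3 exercised hearts stood below every sedentary one. ZT12-EX 4 had the lowest Per2 and Per3 of its group, on 205 and 228 reads, but not the lowest Per1. Mitochondrial transcripts took 2.70% of its counts, against 16.1% in ZT12-EX 5 and 20.6% in ZT12-EX 6. Its 8 cardiomyocyte markers summed to 196292 CPM, against 30362 to 94364 CPM in the other libraries. Its 5 erythroid markers summed to 4751 CPM, against 241 to 2501 CPM. The part of this composition in its Period values was not tested. Without ZT12-EX 4, exercise at ZT12 gave 0.66 for Per2 (edgeR adjusted p = 0.108) and -0.019 for Per3 (edgeR adjusted p = 0.971).

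The ZT12 effect minus the ZT0 effect was negative for each gene but did not pass over all genes. It was -2.24 ± 0.51 for Per1 (unadjusted p = 0.000199, edgeR adjusted p = 0.506), -1.21 ± 0.32 for Per2 (unadjusted p = 0.000853, edgeR adjusted p = 0.571) and -0.50 ± 0.27 for Per3 (edgeR adjusted p = 0.571). The test called 0% of genes for this difference. The count at an unadjusted p under 0.05 was 1226, and DESeq2 called 3 genes, none of them a Period gene. Of 41 alternatives to the main fit, 36 kept the Per1 difference negative and not past the threshold. Among those were DESeq2 (-2.21, adjusted p = 0.115) and limma-voom (-2.08, adjusted p = 0.600). Per1 did pass with offsets for GC content (-2.38, adjusted p = 0.00298), with 2 surrogate variables (-2.51, adjusted p = 0.00878) and without ZT12-SED 1 (-2.47, adjusted p = 0.0266). Within flow cell 1 the Per1 difference between the effects was -1.07, and within flow cell 2 it was -2.54.

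**Figure D2:**
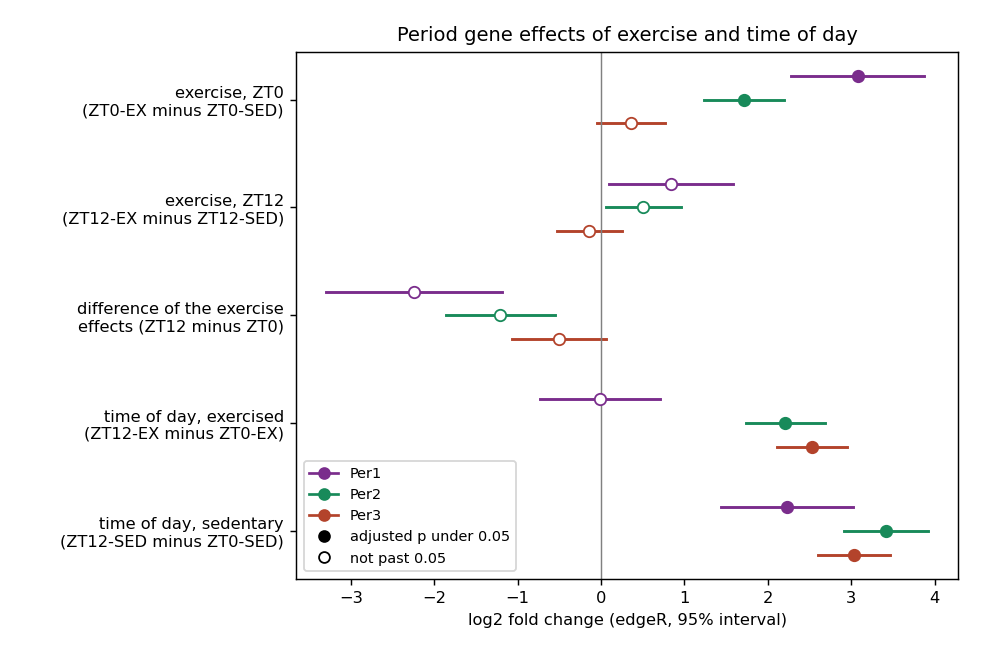
Log2 fold change (point) and 95% interval (bar) of each Period gene in 5 comparisons from the edgeR fit, n = 6 mice per group, filled where the adjusted p is under 0.05. Filled points are Per1 and Per2 for exercise at ZT0, Per2 and Per3 for time of day in exercised mice, and all 3 genes for time of day in sedentary mice.

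**Figure D3:**
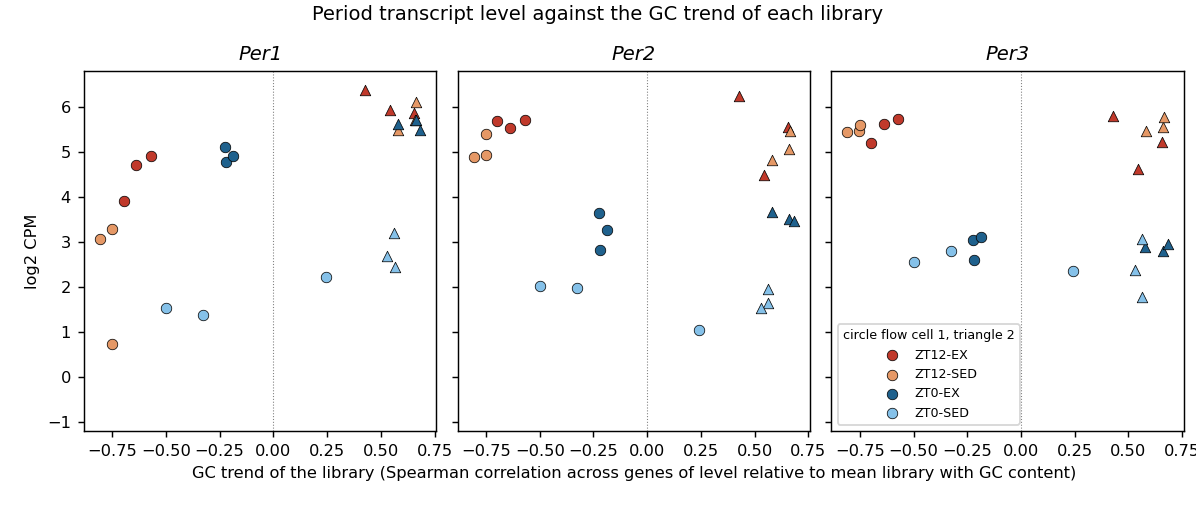
Log2 CPM of each Period gene against the GC trend of its library, the Spearman correlation across genes between the level relative to the mean library and transcript GC content (circles flow cell 1, triangles flow cell 2, colours the 4 groups). Farthest left, at -0.81 to -0.75, are 3 ZT12-SED libraries, all on flow cell 1, which hold the low Per1 values of that group, while their Per2 and Per3 levels lie near those of flow cell 2.

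Time of day changed Per2 and Per3 in both exercised and sedentary mice. In exercised mice all 6 ZT12-EX hearts (22.2 to 75.1 CPM) stood above all 6 ZT0-EX hearts (6.97 to 12.5 CPM) for Per2, and likewise for Per3, at 24.7 to 56.0 CPM in ZT12-EX against 5.92 to 8.58 CPM in ZT0-EX. Such a separation in that direction was seen for 0.379% of genes tested. The log2 fold change was 2.21 ± 0.23 for Per2 (edgeR adjusted p = 1.25e-06) and 2.53 ± 0.20 for Per3 (edgeR adjusted p = 2.5e-08). The test called these 2 of the 3 genes, and 1.65% of all genes.

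Per1 showed no time-of-day difference that passed in exercised mice. Its log2 fold change was -0.013 ± 0.35, with a 95% interval of -0.73 to 0.71 (edgeR adjusted p = 0.993). The ZT12-EX hearts (14.9 to 82.9 CPM) reached both below and above the ZT0-EX hearts (27.2 to 52.2 CPM). Mean log2 CPM differed by -0.42 within flow cell 1, while within flow cell 2 it differed by 0.45.

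In sedentary mice all 3 genes passed, where 5.2% of genes did. Per2 ranged over 28.2 to 43.8 CPM in ZT12-SED hearts and 1.94 to 3.91 CPM in ZT0-SED hearts, with a log2 fold change of 3.42 ± 0.25 (edgeR adjusted p = 1.81e-09). Per3 ranged over 43.5 to 55.0 CPM in ZT12-SED hearts and 3.33 to 8.26 CPM in ZT0-SED hearts, with 3.03 ± 0.21 (edgeR adjusted p = 8.76e-10). For both the groups did not overlap, which 0.889% of genes showed in that direction. Per1 was higher by 2.22 ± 0.38 (edgeR adjusted p = 0.00107), but 4 of the 6 ZT12-SED hearts stood above every ZT0-SED heart and 1, ZT12-SED 1, below all of them.

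The time-of-day difference of Per1 in sedentary mice was uneven, at 0.65 within flow cell 1 but 2.99 within flow cell 2. With the GC trend of each library removed these values were 2.05 and 2.98. Fitted to flow cell 1 alone, it was 1.05 (adjusted p = 0.0684). Without the 3 libraries least correlated with the rest it was 2.69 (adjusted p = 2.9e-06). Per2 differed by 3.40 within each flow cell, and Per3 by 2.93 within the first and 3.19 within flow cell 2. With the GC trend removed, Per2 differed by 4.46 within flow cell 1 and 3.39 within flow cell 2, and Per3 by 3.34 and 3.20. Removing the trend thus brought the flow cells closer for Per1 but moved them apart for Per2.

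ZT12-SED was also set against ZT0-EX, a comparison added to order the groups, in which the test called 14.9% of genes. Per2 was higher in ZT12-SED by 1.70 ± 0.23 (edgeR adjusted p = 4.63e-05) and Per3 by 2.67 ± 0.20 (edgeR adjusted p = 6.8e-09), both without overlap, as were 1.1% of genes in that direction. Per2 in exercised mice at ZT0 therefore stayed below every sedentary mouse at ZT12. For Per1 the value was -0.85 ± 0.37 (edgeR adjusted p = 0.101). It was -1.58 without the 6 libraries with skeletal muscle transcripts (adjusted p = 0.0292), -2.18 on flow cell 1 alone (adjusted p = 0.00276) and 0.21 on flow cell 2 alone (adjusted p = 0.996).

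The balance between the 3 transcripts was compared within each heart, which needs no scaling between libraries. Differences between groups in the log2 ratio were tested with a two-sided exact permutation test within flow cells, adjusted over 12 comparisons (3 ratios in 4 comparisons). The smallest p its 400 arrangements allow is 0.005, or 0.00857 once adjusted here.

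At ZT0 exercise shifted all 3 ratios. The log2 ratio of Per1 to Per2 was 1.46 to 2.19 in ZT0-EX hearts and -0.60 to 1.25 in ZT0-SED hearts, a difference of 1.32. The ratio of Per1 to Per3 differed by 2.62 and that of Per2 to Per3 by 1.30, and in none of the 3 did the groups overlap (exact permutation test, adjusted p = 0.00857 each). At this time Per1 therefore changed more than Per2, and Per2 more than Per3.

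At ZT12 the Per1 to Per3 ratio was higher after exercise by 1.40 (exact permutation test, adjusted p = 0.00857) and the Per2 to Per3 ratio by 0.62 (exact permutation test, adjusted p = 0.015). The Per1 to Per3 log2 ratio was -1.30 to 1.30 in ZT12-EX hearts and -4.74 to 0.32 in ZT12-SED hearts, so the groups overlapped, and it differed by 2.13 within flow cell 1 but 0.67 within flow cell 2. The Per2 to Per3 log2 ratio was -0.15 to 0.48 in ZT12-EX hearts and -0.66 to -0.071 in ZT12-SED hearts. The groups overlapped, since ZT12-EX 4 and ZT12-EX 2 (-0.082) lay below ZT12-SED 1, the highest sedentary heart. With the GC trend removed that difference was 0.42 (exact permutation test, adjusted p = 0.102). The Per1 to Per2 ratio, at 0.78, did not pass (exact permutation test, adjusted p = 0.185).

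Between times of day, both ratios with Per1 on top were lower at ZT12. In exercised mice the Per1 to Per2 log2 ratio was -1.78 to 1.455 at ZT12 and 1.461 to 2.19 at ZT0, a difference of -2.12, and the Per1 to Per3 ratio differed by -2.46, neither with overlap (exact permutation test, adjusted p = 0.00857 each). In sedentary mice they differed by -1.58 (adjusted p = 0.00857) and -1.24 (adjusted p = 0.0333) by the same exact permutation test. Those differences were -2.75 and -2.27 within flow cell 1, but -0.41 and -0.20 within flow cell 2. With the GC trend removed, the Per1 to Per3 difference was -0.75 (exact permutation test, adjusted p = 0.0375). The Per2 to Per3 ratio did not pass in either, at -0.34 in exercised mice (adjusted p = 0.06) and 0.34 in sedentary mice (adjusted p = 0.164), both by the exact permutation test.

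**Figure D4:**
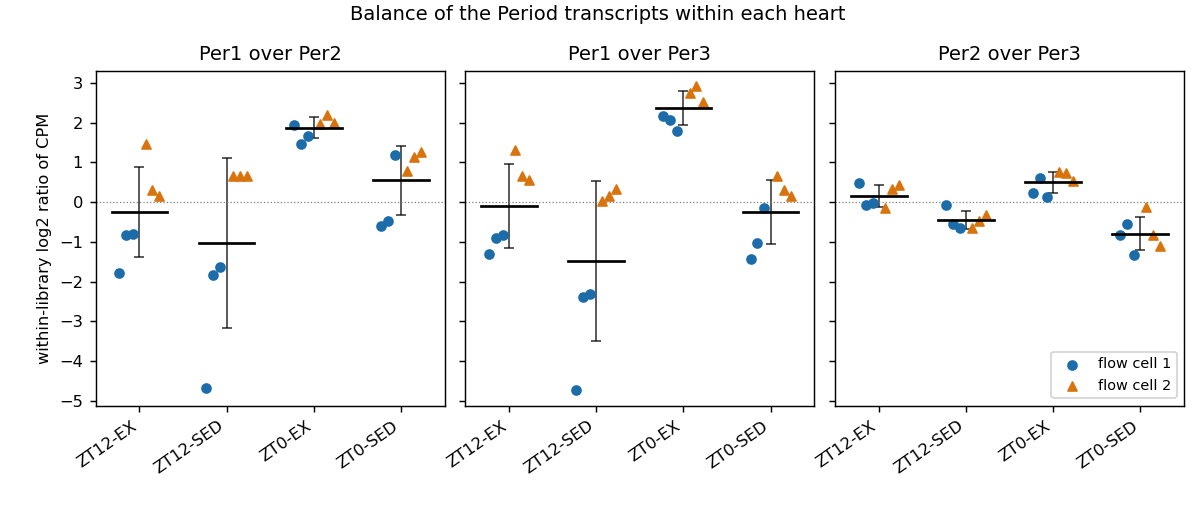
Within-library log2 ratio of CPM for each pair of Period genes in the 24 hearts (circles flow cell 1, triangles flow cell 2; bar: mean; whiskers: SD, n = 6). ZT0-EX hearts have the highest mean in all 3 panels, and the ratios with Per1 spread furthest in ZT12-SED, down to -4.74 for Per1 over Per3 in ZT12-SED 1.

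Hearts of the same group and flow cell were compared to see whether the genes vary together. Over 24 hearts, with group and flow cell means removed, log2 CPM of Per2 and Per3 correlated at r = 0.69 (permutation p = 0.00528, adjusted over 3 pairs 0.0158) and Spearman rho = 0.64 (permutation p = 0.00709, adjusted 0.0213). Without the hearts farthest from the median, ZT12-EX 4 and ZT12-EX 6, r was 0.48. Over 2 alternatives (library totals, and without the 3 libraries least correlated with the rest) r of Per2 and Per3 ran from 0.59 to 0.83. Both genes of a pair share the scaling and the cell composition of their library, and the part of these in r was not tested. Per1 and Per3 had r = 0.33 (permutation p = 0.027, adjusted 0.0405) and rho = 0.39 (permutation p = 0.0887, adjusted 0.133), and r = 0.47 without ZT12-SED 1 and ZT12-SED 3. Per1 and Per2 had r = -0.11 (permutation p = 0.59, adjusted 0.59) and rho = -0.079 (permutation p = 0.754, adjusted 0.754), and r = 0.081 without the same hearts.

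The genes whose pattern over the 24 libraries was most like each Period gene differed between them (Pearson r of log2 CPM with the flow cell mean removed, 11300 genes compared; a description, since these points share libraries, depth and groups). Closest to Per3 were Tef (0.96) and Hlf (0.95), which encode D-box activators, and Nr1d2 (0.93), which encodes the clock repressor REV-ERB beta. Closest to Per2 were Rhobtb1 (0.94), Timp3 (0.93), an inhibitor of matrix metalloproteinases, and Atp10d (0.92). Closest to Per1 were the kinase genes Map3k6 (0.93) and Pim3 (0.90), then Jade2 (0.89). Among the Period genes themselves r was 0.93 for Per2 with Per3, 0.59 for Per1 with Per2 and 0.41 for Per1 with Per3.

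The other 16 clock genes were set beside the Period genes by role, with the shares of all genes that passed as given above for each comparison. For exercise at ZT0, 1 of 16 rose, 0 fell and 15 did not pass, with a median log2 fold change of 0.16. The riser was Bhlhe40, which encodes the repressor DEC1 (0.93 ± 0.23, edgeR adjusted p = 0.0479). This count depends on the processing. Of 30 alternatives to the main fit, 6 also gave 1 of 16, and the count ran from 0 to 4. The activators did not pass, with Bmal1 (listed as Arntl) at 0.082 ± 0.21 and Clock at 0.30 ± 0.26, nor did the cryptochromes, with Cry1 at -0.090 ± 0.16 and Cry2 at -0.0034 ± 0.19. At ZT12, 0 of 16 passed for exercise, and their median was 0.14.

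Between times of day the clock list moved far more. In exercised mice 7 of 16 were higher at ZT12, 3 were lower and 6 did not pass, and in sedentary mice the counts were also 7, 3 and 6. Bmal1 was lower at ZT12 by -4.60 ± 0.27 in exercised mice and -4.21 ± 0.26 in sedentary mice, and the activator gene Npas2 by -2.87 ± 0.19 and -3.12 ± 0.20. The D-box activator Dbp was higher by 2.84 ± 0.29 in exercised mice and 2.48 ± 0.29 in sedentary mice, and Tef by 1.66 ± 0.15 and 1.61 ± 0.15. Nfil3, the D-box repressor, was lower by -1.71 ± 0.22 and -1.79 ± 0.22. Nr1d2 was higher by 1.54 ± 0.28 and 2.57 ± 0.29, and Ciart, which encodes the repressor CHRONO, by 2.01 ± 0.20 and 2.09 ± 0.21.

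**Figure D5:**
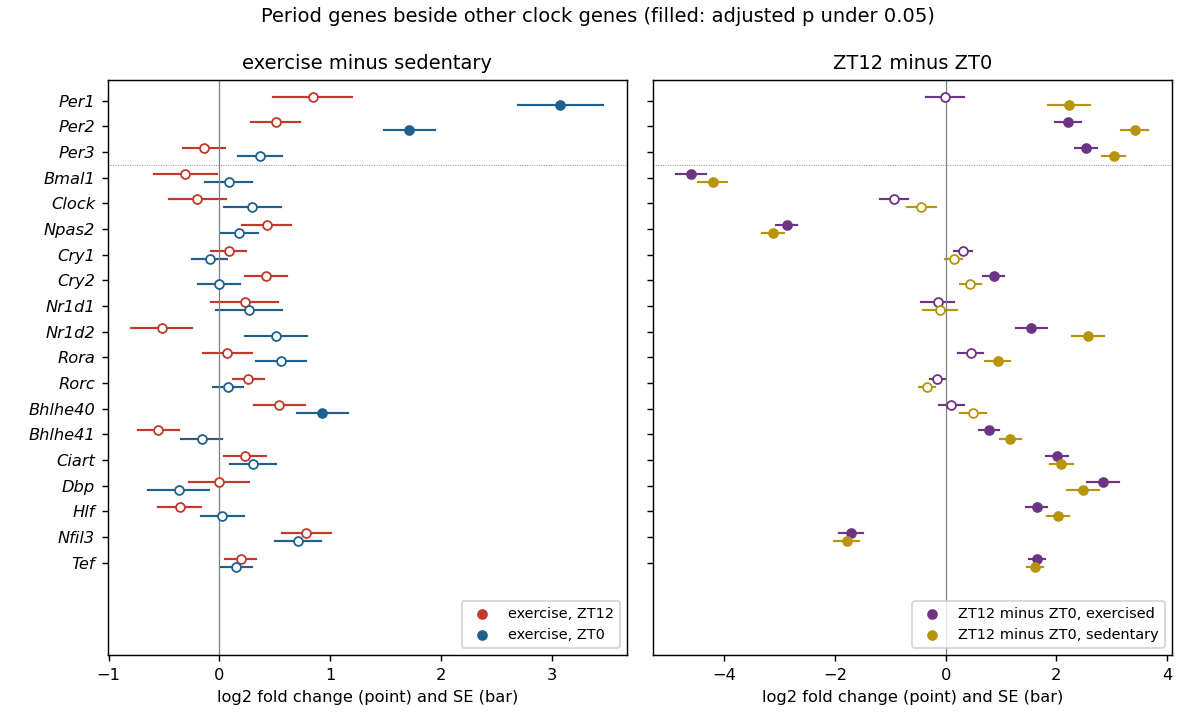
Log2 fold change (point) with SE (bar) of the 3 Period genes and 16 other clock genes for exercise (left) and for ZT12 minus ZT0 (right), filled where the edgeR adjusted p is under 0.05. For exercise at ZT0 the filled points are Per1, Per2 and Bhlhe40, and in the right panel most filled points of exercised and sedentary mice lie side by side, with Per1 as the gene at 2.22 in sedentary and -0.013 in exercised mice.

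Of 9 regulators and partners of PER proteins, 0 passed for exercise at ZT0 or ZT12. Of all genes 1.08% and 0.294% passed there, so 0 of 9 does not set these genes apart from the rest. Usp2, which encodes a deubiquitinase of PER1, was at 0.81 ± 0.21 at ZT0 (edgeR adjusted p = 0.0699), and its time-of-day value was 0.64 ± 0.21 in exercised mice (edgeR adjusted p = 0.143) and 1.07 ± 0.21 in sedentary mice (edgeR adjusted p = 0.00434). The kinase gene Csnk1d, which encodes casein kinase 1 delta, was at 0.30 ± 0.20 for exercise at ZT0 and Csnk1e at 0.26 ± 0.17. In sedentary mice Timeless was lower at ZT12 by -0.64 ± 0.19 (edgeR adjusted p = 0.0477).

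Genes inducible by CREB-type signals or by glucocorticoids were counted as well, and no link between them and Per1 was tested. Both lists were chosen with earlier results of these data known, so their counts are a description and not independent support. Of 9 CREB-type genes, 6 rose for exercise at ZT0, 0 fell and 3 did not pass, with a list median of 1.74, where 1.08% of all genes passed in either direction. They included the nuclear receptor genes Nr4a3 (3.24 ± 0.31) and Nr4a1 (2.88 ± 0.39) and the kinase gene Sik1 (2.70 ± 0.28). Of 10 glucocorticoid-inducible genes, 9 rose, 0 fell and 1 did not pass, with a median of 1.40. Examples are Cdkn1a, which encodes a cell cycle inhibitor (2.00 ± 0.19), and Errfi1 (1.41 ± 0.20). At ZT12, 4 of the 9 and 1 of the 10 passed for exercise, all upward (0.294% of all genes passed), with medians of 1.29 and 0.50, and Nr4a1 was at 2.53 ± 0.39, Nr4a3 at 2.35 ± 0.31 and Cdkn1a at 1.16 ± 0.19. The difference between the ZT12 and the ZT0 effect passed for none of these genes.

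The glucocorticoid-inducible list also changed with time of day. In exercised mice 2 of 10 were higher at ZT12, 1 was lower and 7 did not pass (1.65% of all genes passed), and in sedentary mice the counts were 7, 1 and 2 (5.2% of all genes passed). Fkbp5, which encodes a co-chaperone of the glucocorticoid receptor, was higher at ZT12 by 1.19 ± 0.23 in exercised mice and 1.89 ± 0.23 in sedentary mice. Cdkn1a was lower at ZT12 in both, by -1.56 ± 0.18 in exercised mice and -0.71 ± 0.18 in sedentary mice. The exercise comparison at ZT0 and the sedentary time-of-day comparison share the ZT0-SED hearts, so their values are given side by side and not set against each other.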

How the data were processed

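The deposited files hold whole-number read counts per Ensembl gene, not normalized, which the authors made with Trimmomatic 0.39, HISAT2 2.2.1 on GRCm39 and featureCounts 2.0.1, per the submitters' processing notes. Tool settings, the annotation and strand handling are not given in these sources. Per3 lies within the span of Camta1, with which it shares 0 exon bases.

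Counts of all 24 libraries were fitted with edgeR 4.0.16 (filterByExpr, TMM, robust quasi-likelihood; group and flow cell as terms; 15294 genes; 19 residual degrees of freedom). P-values were adjusted by Benjamini-Hochberg over all genes tested, with a threshold of 0.05. P-values measure the spread between mice labelled as biological replicates. The fit was tested on simulated counts that held no flow cell difference and no GC trend. That test therefore cannot tell how the fit handles either. Log2 CPM used a prior count of 2. GC trends were removed by lowess (span 0.3) on transcript GC of an older annotation (GRCm38), which also gave lengths and symbols. Alternatives were other normalizations, filters, DESeq2 1.42.0, limma-voom (limma 3.58.1), flow cells apart, surrogate variables (sva 3.50.0) and libraries left out. Chi-square per degree of freedom between libraries of a group was 14.1 or more, more than sampling noise gives. The named genes are the 3 Period genes, the 3 genes most correlated with each, and list members that passed in a comparison (up to 4 a list). Members and lists were chosen with earlier results of these data known, and Clock, Cry1, Csnk1d and Csnk1e were named outside this rule after their values were seen. P-values and correlations beyond edgeR came from scipy 1.17.1.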

Additional observations from a re-analysis of the deposited data

How the results depend on the processing

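Of 483 alternatives over 15 results (3 Period genes in 5 comparisons), 453 kept direction and side of the threshold, and 8 results did so under all of theirs. These were Per1 and Per3 for exercise at ZT0, Per1 for exercise at ZT12, the difference between the exercise effects for Per2 and Per3, Per2 and Per3 for time of day in sedentary mice, and Per3 for time of day in exercised mice. The causes of the changes below were not tested.

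Per1 for time of day in exercised mice, near 0, became positive under limma-voom (0.017), without the flow cell term (0.20), with the compared groups alone (0.055), with 2 surrogate variables (0.33), with GC offsets (0.34), on flow cell 2 alone (0.52), without the 3 libraries least correlated with the rest (0.030), and with GC offsets in the replicate block (0.30), on flow cell 1 (0.24) and on flow cell 2 (0.53). It ran from -0.12 to 0.13 with 1 library left out. Per3 for exercise at ZT12 turned positive with library totals (0.034) and on flow cell 1 alone (0.070), and Per2 negative on flow cell 1 with GC offsets (-0.080). Per1 in ZT12-SED against ZT0-EX turned positive on flow cell 2 alone (0.21, or 0.29 with GC offsets) and passed on flow cell 1 alone (-2.18, or -0.95 with GC offsets) and without ZT12-SED 6 (-1.08), and Per2 there did not pass on flow cell 2 alone (1.62, or 1.68 with GC offsets). The correlation of Per1 with Per2 turned positive with library totals (0.32) and without the 3 libraries least correlated with the rest (0.094).

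On single flow cells, with 3 mice per group, some calls were lost: Per1 for time of day in sedentary mice on flow cell 1 (1.05), Per2 for exercise at ZT0 on flow cell 2 (1.82) and with GC offsets on flow cells 1 and 2 (1.53 and 1.75), and Per2 for time of day in exercised mice on flow cell 2 (2.09, or 2.13 with GC offsets). The Per1 difference between the exercise effects passed with 2 surrogate variables (-2.51), GC offsets (-2.38), the replicate block with GC offsets (-2.41) and without the 3 libraries least correlated with the rest (-2.66), and ran from -2.47 to -1.98 with 1 library left out.

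Without the 6 libraries with skeletal muscle transcripts ZT0-EX keeps 3 mice, so in its comparisons the exact permutation test of a ratio cannot go below 0.10, while the other groups keep 5. Values were then 1.65 (Per1 to Per2), 2.88 (Per1 to Per3) and 1.23 (Per2 to Per3) for exercise at ZT0, 1.51 (Per1 to Per3) and 0.60 (Per2 to Per3) for exercise at ZT12, -2.82 and -3.03 (Per1 to Per2, Per1 to Per3) for time of day in exercised mice, and -1.53 and -1.33 in sedentary mice. None passed after adjustment, although the comparisons without ZT0-EX had adjusted p of 0.0667 to 0.10. With labels permuted over both flow cells, the same differences of 1.40 (Per1 to Per3, exercise at ZT12), -1.58 and -1.24 (time of day in sedentary mice) no longer passed. The Per2 to Per3 ratio for exercise at ZT12 was 0.42 with the GC trend removed. With 1 library left out, Per1 to Per3 in sedentary mice ran from -1.45 to -0.84, and Per2 to Per3 from -0.43 to -0.25 in exercised and from 0.23 to 0.48 in sedentary mice, passing in some.

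Replicate numbers were not treated as pairs, since the labels tie them to nothing shared and same-numbered hearts correlated at -0.45 to 0.78, with 15 of 36 pairs above 0.1, against 20 of 72 other-numbered pairs. Between ZT12-EX and ZT12-SED, 5 of 6 same-numbered pairs were above 0.1 (0.056 to 0.48), a hint from the data and not the design. With the number as a replicate block, no call of a Period gene changed (Per1 for exercise at ZT0 3.13), and 160, 31, 0, 220 and 608 genes were called, against 165, 45, 0, 252 and 795 without it, for exercise at ZT0, at ZT12, their difference and time of day in exercised and in sedentary mice. Over the other alternatives those counts ran from 13 to 517, 2 to 229, 0 to 3, 17 to 1142 and 35 to 6552. The shallowest library limits low levels: 8 Per1 reads in ZT12-SED 1.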
